A study of Mus musculus with 3 samples.

Results

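The broad distribution of ERRα ChIP coverage along the mouse autosomes, apart from its focal peaks, was described against a rabbit immunoglobulin G (IgG) control. Mean coverage of both tracks was taken in windows of 1 Mb and 10 kb on chromosomes 1 to 19, positions in no interval counting as 0. Windows with under 80% of their bases covered by IgG and bins of 200 bp with IgG above 10 were left out. Of 2463 windows of 1 Mb, 2338 (94.9%) were kept, and of 247223 windows of 10 kb, 225243 (91.1%). The quantity described is the log2 ratio of mean ERRα to mean IgG coverage in a window, so 0 means equal coverage.

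Chromatin came from the liver of male C57Bl/6 mice, 2 to 3 months old, with 1 library in each of the 3 groups of the study. The ERRα ChIP used an Epitomics antibody to ERRα, the control the Santa Cruz rabbit IgG sc-2027, and the mTOR ChIP the Abcam antibody ab32028. Each ChIP library pooled 8 immunoprecipitations from chromatin of 26 livers, whereas for IgG that number was not given in the sources used here. Libraries were sequenced as single reads of 50 bp, the labels name no genotype or drug for any of them, and no rapamycin-treated library was analysed here. With 1 library per group there is no replicate error and no test; each interval given is an exact 95% interval (Clopper-Pearson) from approximate tag numbers and covers counting error only.

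ERRα is an orphan nuclear receptor that binds short response elements in DNA and, together with the PGC-1 coactivators, regulates genes of mitochondrial energy metabolism. Such binding gives narrow peaks in ChIP-seq, whereas the tags between peaks are mostly background chromatin carried through the procedure. Background coverage is known to vary along the genome with how open chromatin shears, with base composition and with how uniquely reads align, and a non-specific IgG library is used to measure it.

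The file headers gave 74200000 tags for ERRα, 68800000 for IgG and 62500000 for mTOR, and the authors scaled each track to 10000000 tags, so that 1 tag was worth 0.135, 0.145 and 0.16 units of coverage. A 1-Mb window held a median of 27446 ERRα and 26181 IgG tags, and a 10-kb window 278 and 269. Focal regions were bins with at least 3 times as much ERRα as IgG coverage (0.2 added to each) and ERRα above 1.98, a level that 1 in 1000 of the IgG bins above 0 exceeded, adjacent bins being merged. There were 21926 of them, against 130 with the roles of the libraries swapped, and they held 2.43% of ERRα coverage. They and 1 kb on both sides were left out unless stated, which removed 2.03% of bins, 5.39% of ERRα coverage and 2.34% of IgG coverage.

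Outside focal regions, most of the autosomal genome carried slightly less ERRα than IgG coverage on the authors' scale. Before any ratio, the 1-Mb windows ran from 0.433 (5th percentile) through 0.565 (median) to 0.716 (95th percentile) in ERRα, and from 0.48 through 0.583 to 0.69 in IgG. ERRα thus spread more widely than IgG at both ends. The median log2 ratio was -0.054, a ratio of 0.963, with the 5th and 95th percentiles at -0.161 and 0.104 and the extremes at -0.274 and 0.213. The counting interval lay below 1 in 1487 windows, above 1 in 476 and held 1 in 375. The median and these counts rest on the authors' scaling to all tags, those of focal regions included. Leaving out focal regions and their flanks removed 5.39% of ERRα and 2.34% of IgG coverage. Bins with IgG above 10, also left out, held 4.29% of ERRα and 4.95% of IgG coverage. The log2 ratio of the means over kept bins was -0.040.

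Large windows that departed by 1.1-fold or more were mostly on the lower side on the authors' scale. ERRα was lower than IgG by 1.1-fold or more in 349 windows (14.9%) and higher in 40 (1.71%), so 10.3% of such windows were higher. This split depends on where the ratio is centred. Centred on the median 10-kb window (log2 -0.058), 184 were higher and 9 lower, or 95.3% higher; scaled to the mean over kept bins, 131 were higher and 43 lower, or 75.3% higher. With focal regions kept, 305 (13%) were higher and 323 (13.8%) lower. The higher windows numbered 16 with 5 kb in place of 1 kb left out around focal regions and 8 with focal regions called from 2-fold, against 356 and 361 lower windows. The words higher and lower therefore refer to the authors' scaling to all tags, and the order of the windows does not depend on the scaling.

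The spread of the ratio did not average out over large windows. Over 10-kb windows with IgG of 0.3 or more, the SD of the log2 ratio was 0.178, of which counting alone gives 0.125. Over 1-Mb windows it was 0.081, against 0.013 from counting, so 97.6% of the variance lay beyond counting, compared with 50.5% at 10 kb. The 2 interleaved sets of 1-kb blocks within the same windows share libraries, and tags at block edges, but no bins. Their log2 ratios had r = 0.35 over 219353 windows of 10 kb and r = 0.955 over 2332 windows of 1 Mb. At 5 Mb the SD was still 0.064. Single 10-kb values were thus about as much counting as pattern, and 1-Mb values were nearly all pattern, in this one pair of libraries.

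**Figure D1:**
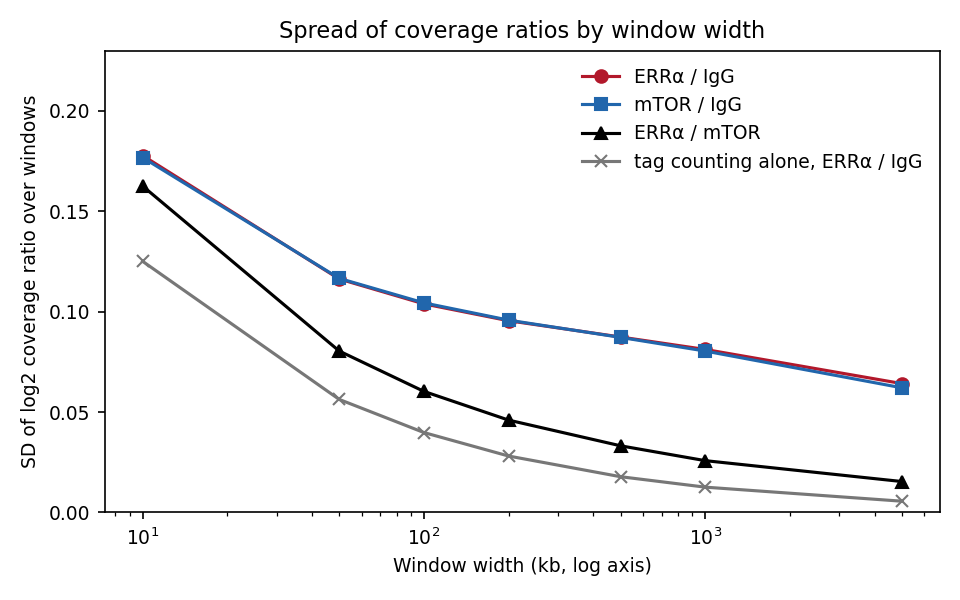
SD of the log2 coverage ratio over windows (y axis, log2 units) by window width (x axis, kb, log axis) for ERRα over IgG, mTOR over IgG, ERRα over mTOR, and for tag counting alone in ERRα over IgG, in windows with IgG of 0.3 or more. At 1000 kb both ratios to IgG have an SD near 0.08, ERRα over mTOR 0.026 and counting 0.013.

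The mTOR ChIP shares the IgG library, so its values are given beside those of ERRα and not as a second comparison. With the focal regions of both ChIPs left out, the median log2 ratio over 1-Mb windows was -0.055 for ERRα over IgG, with 34 windows higher and 348 lower by 1.1-fold. For mTOR over IgG it was -0.039, with 49 higher and 228 lower. The SD was 0.081 and 0.080 for these ratios. ERRα over mTOR, which does not use IgG, had a median of -0.013, an SD of 0.026, and 0 windows higher and 2 lower by 1.1-fold. From here on, mTOR values are given with the focal regions of both ChIPs left out unless stated. An mTOR ratio uses IgG of the same bins as mTOR, which can differ from the IgG coverage printed beside it. Broad differences between the ChIP libraries were thus smaller than those of either from IgG.

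Windows with high or low ratios lay next to one another. The correlation between 1-Mb windows was r = 0.67 at a distance of 1 Mb (2277 pairs), 0.23 at 5 Mb (2180 pairs) and 0.04 at 30 Mb (1732 pairs), over neighbouring windows of the same libraries. Consecutive windows on 1 side of the median formed 325 runs above it and 314 below it, with a median of 2 Mb each. Runs of 10 Mb or more numbered 21 above and 29 below and held 27.9% and 32.8% of the windows on their side. The longest runs, picked after the values were seen, were chr9:40000001-76000000 above the median (36 windows, pooled ratio 1.03, 641 focal regions, mean IgG 0.627) and chr16:53000001-76000000 below it (23 windows, 0.919, 41 focal regions, mean IgG 0.509). Over the same stretches mTOR over IgG was 1.02 and 0.927.

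Chromosomes differed little from one another compared with the spread within each. Chromosome 11 had the highest median log2 ratio, 0.0006 over 118 windows, followed by chromosome 19 at -0.015 (57 windows) and chromosome 9 at -0.018 (121 windows). The lowest were chromosome 3 at -0.076 (155 windows), chromosome 2 at -0.078 (175) and chromosome 16 at -0.080 (94). The medians spanned 0.081, whereas the SD within a chromosome ran from 0.062 to 0.093, and 5.98% of the variance of 1-Mb windows lay between chromosomes. The largest step between neighbours in the order was 0.020, between chromosomes 9 and 7, so no neighbours differed beyond their spread. On chromosome 11, 50.9% of windows lay above a ratio of 1, against 11.6% on chromosome 3. Chromosomes 11, 19 and 9 also led by the mean of windows and by the pooled ratio, but chromosome 16 moved from last to rank 15 and rank 14, and chromosome 3 was then last. The mTOR ChIP had chromosome medians of 0.012, 0.0021 and -0.022 on chromosomes 11, 19 and 9, and -0.066, -0.052 and -0.069 on chromosomes 3, 2 and 16.

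**Figure D2:**
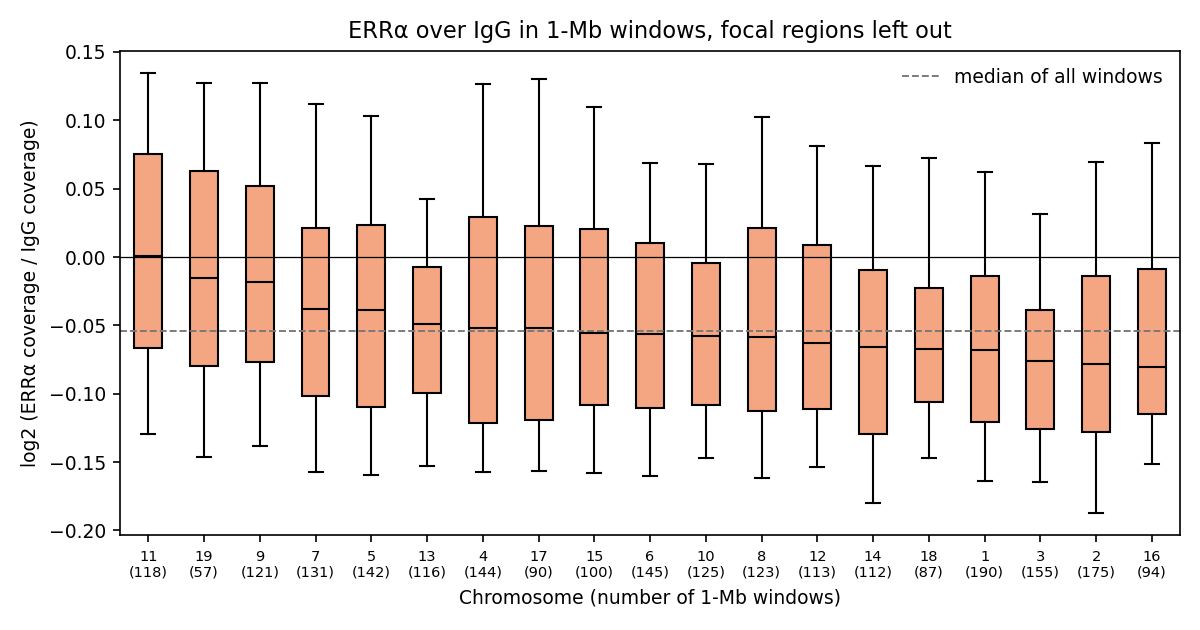
Log2 ratio of ERRα to IgG coverage (y axis) in 1-Mb windows of each autosome (x axis, ordered by median, number of windows in brackets), focal regions left out; boxes are quartiles with the median, whiskers the 5th and 95th percentiles, and the dashed line the median of all windows, -0.054. The boxes overlap from chromosome 11 (median 0.0006) to chromosome 16 (-0.080).

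Chromosomes with more focal regions had higher ratios outside them. Chromosomes 11 and 19 held 15.3 and 14.4 focal regions per Mb of covered sequence, and chromosomes 3 and 16 held 6.13 and 7.91; chromosome 2, at 9.94, was low in ratio without being low in focal regions. Across the 19 chromosomes the median ratio had r = 0.86 (rho = 0.77) with focal regions per Mb and r = 0.70 (rho = 0.66) with protein-coding genes per Mb, counted on GRCm38.p6. It had r = 0.77 (rho = 0.68) with median IgG coverage and r = -0.32 (rho = -0.19) with covered length. Without the chromosomes farthest from the median of each axis, these r were 0.68, 0.62, 0.64 and -0.06. These are descriptions over 19 points from the same libraries, and IgG is the denominator of the ratio it is set against.

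Broad ratios were lowest where IgG itself was low. To lessen the counting error of IgG that both axes share, IgG level was read from alternating 1-kb blocks and the ratio from the others. Adjoining blocks still share tags at their edges. Over 2338 windows of 1 Mb, r was 0.665 and rho 0.738, with a slope of 0.305 log2 units of ratio per log2 unit of IgG. On each of the 19 chromosomes r was positive, from 0.41 on chromosome 19 to 0.81 on chromosome 10. At 10 kb the same relation was weak, with r = 0.175 over 224336 windows.

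The 1-Mb windows were divided into 10 classes of like number by IgG level. The median log2 ratio was -0.141 in class 1, where IgG was lowest (0.257 to 0.494), and -0.139 in class 2. It passed through -0.062 in class 5 and -0.0072 in class 7, and was 0.027 in class 10, where IgG ran from 0.67 to 1.01. The share of windows with a ratio above 1 was 3.85% in class 1 and 72.2% in class 10. The mTOR ChIP went from -0.126 to 0.040 over the same classes, while ERRα over mTOR was -0.017 in class 1 and -0.010 in class 10. The number of focal regions moved along with IgG, with a mean of 1.47 per window in class 1 and 20.5 in class 10.

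**Figure D3:**
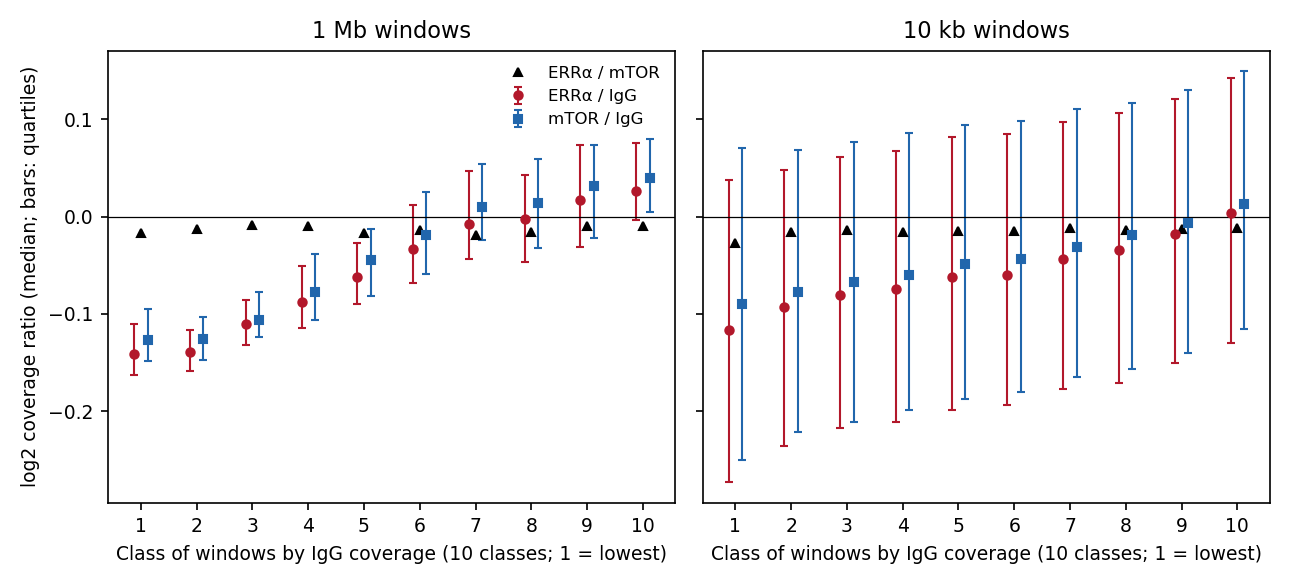
Median log2 coverage ratio with quartile bars (y axis) by class of IgG coverage (x axis, 10 classes of like number, 1 = lowest) in 1-Mb windows (left) and 10-kb windows (right), for ERRα over IgG and mTOR over IgG, with medians of ERRα over mTOR as triangles. ERRα over IgG goes from -0.141 to 0.027 at 1 Mb and from -0.117 to 0.0036 at 10 kb, while ERRα over mTOR stays between -0.028 and -0.0085.

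The more focal regions a window held, the higher its ratio outside them. These regions and their flanks are not in the ratio, but they were called from the same pair of libraries. The 330 windows with no focal region had a median log2 ratio of -0.145 (quartiles -0.161 and -0.127), none of them was above a ratio of 1, and 209 were lower by 1.1-fold or more. The median was -0.078 in the 390 windows with 3 to 5 regions and 0.013 in the 475 windows with 11 to 20. In the 305 windows with 21 or more it was 0.082 (0.055 and 0.118), 97.7% were above 1, and all 40 windows that were higher by 1.1-fold or more were among them. Over 2338 windows rho was 0.918, with the ratio from all kept bins. With IgG level rho was 0.738 when ratio and IgG came from different 1-kb blocks, and 0.747 with IgG of all bins as the axis. For mTOR over IgG the medians were -0.133 in windows with no ERRα focal region and 0.086 in those with 21 or more.

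Within windows of like IgG level, in 3 classes, the same order held. In the lowest class by IgG the median was -0.138 with 0 to 3 focal regions (631 windows), -0.070 with 4 to 10 (128) and 0.015 with 11 or more (21). In the highest class it was -0.076 (43 windows), -0.037 (211) and 0.042 (525). The difference between many and few focal regions within a class was thus larger than that between the classes at a like number of regions. The regions were called by ERRα over IgG in these libraries, so this order is no separate support.

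Removing a wider flank narrowed the range without removing the order. With 20 kb left out on both sides of each focal region, a flank chosen after the values were seen, the medians ran from -0.145 in windows with no region to 0.039 in windows with 21 or more, and rho was 0.867 over 2337 windows. In the latter windows a median of 39.4% of bins remained.

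Read by distance from the nearest focal region, in classes chosen after the values were seen, the ratio fell steadily. Bins within 1 kb had ERRα coverage of 1.08 and IgG of 0.676, a ratio of 1.59 (interval 1.589 to 1.596). At 1 to 2 kb the values were 0.741 and 0.662, or 1.12, and at 2 to 5 kb the ratio was 1.07. It was 1.02 at 10 to 20 kb, 0.994 at 20 to 50 kb and 0.946 at 100 to 200 kb. Beyond 1000 kb, in 120.1 Mb of sequence, ERRα coverage was 0.456 and IgG 0.507, a ratio of 0.899 (0.898 to 0.901). IgG coverage thus also fell with distance, and ERRα fell more. The mTOR ratio was 1.11 within 1 kb of an ERRα region, 1.06 at 2 to 5 kb and 0.909 beyond 1000 kb. The step within 1 kb was much larger in ERRα. The regions were called by high ERRα, so an excess of ERRα over mTOR beside them was favoured by the choice. From 2 kb outward ERRα over mTOR stayed between 0.988 and 1.00.

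**Figure D4:**
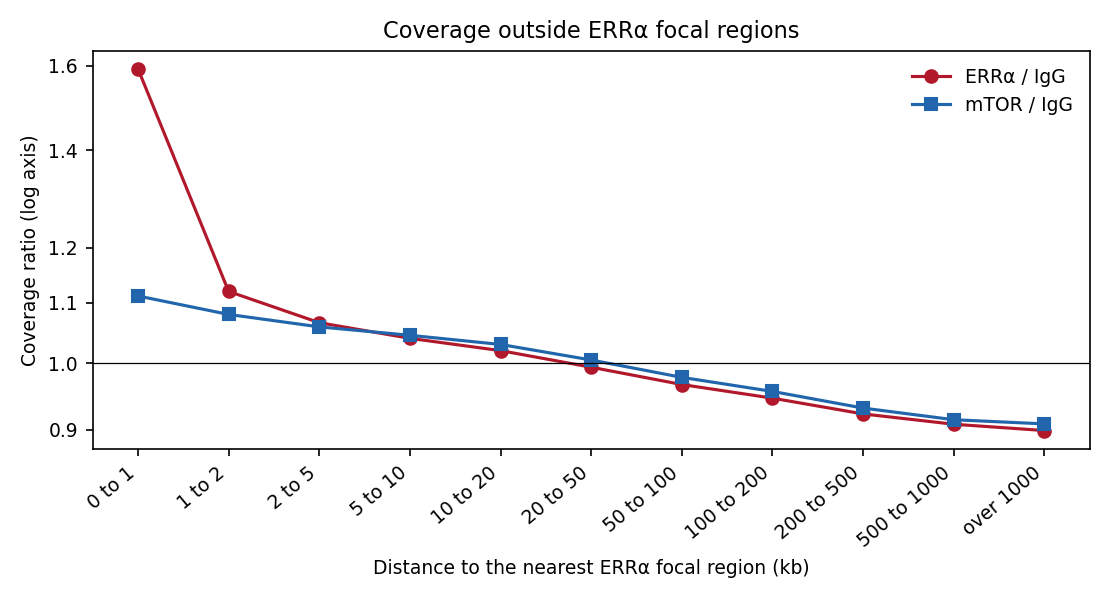
Ratio of mean coverage to IgG (y axis, log axis) by distance to the nearest ERRα focal region (x axis, kb), outside those regions, for ERRα and for mTOR. ERRα goes from 1.59 within 1 kb to 0.899 beyond 1000 kb and mTOR from 1.11 to 0.909.

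The 10 highest 1-Mb windows lay on 7 chromosomes and were all rich in focal regions, with 37 to 70 each. Highest was chr10:80000001-81000000, where coverage was 0.829 in ERRα, 0.715 in IgG and 0.842 in mTOR; ERRα over IgG was 1.16 (interval 1.14 to 1.18). At chr5:122000001-123000000 ERRα was 0.727, IgG 0.633 and mTOR 0.726, a ratio of 1.15 (1.13 to 1.17). Both windows held over 50 focal regions, which had been left out, and their ratios with these kept were 1.35 and 1.33.

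The other windows among the 10 highest had ratios of 1.125 to 1.138. They were chr4:135000001-136000000, chr10:127000001-128000000, chr19:4000001-5000000, chr11:101000001-102000000, chr10:79000001-80000000, chr11:120000001-121000000, chr7:87000001-88000000 and chr8:129000001-130000000. Over all 10, IgG was 0.607 to 0.715 and ERRα 0.687 to 0.829. Of the 10-kb windows in each, 76 to 84 lay above a ratio of 1 and 11 to 23 below, whereas 36.8% of all 10-kb windows lay above 1. These 10-kb windows hold the bins by which the 1-Mb windows were ranked, so a lean upward was set by the choice. Of the 16 kept 1-Mb windows that adjoin these and are not among the 10, 15 lay above the median of all windows. The mTOR ratio was 1.075 to 1.168, and the interval of ERRα over mTOR lay above 1 in 4 of the 10 and below 1 in 1. Over all 2338 windows it lay above 1 in 144 and below 1 in 701. The 10 were picked on ERRα coverage, which is also in this ratio, so their counts are no separate support.

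The 10 lowest 1-Mb windows lay on 3 chromosomes, 7 of them on chromosome 2, and held 0 to 2 focal regions each. Chromosome 2 held 175 of all 2338 kept windows, and some of the 7 adjoin one another. Lowest was chr2:111000001-112000000, where coverage was 0.396 in ERRα, 0.479 in IgG and 0.414 in mTOR; ERRα over IgG was 0.827 (0.811 to 0.843). At chr2:177000001-178000000 ERRα was 0.235, IgG 0.282 and mTOR 0.251, a ratio of 0.834 (0.814 to 0.856). This window had the lowest IgG coverage of the 10 and 86.2% of its bases covered by IgG.

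The remaining windows were chr2:110000001-111000000, chr2:99000001-100000000, chr2:108000001-109000000, chr2:107000001-108000000, chr2:140000001-141000000, chr1:29000001-30000000, chr14:91000001-92000000 and chr14:83000001-84000000, with ratios of 0.845 to 0.877. Within each of these 10 windows, 73 to 91 of the 10-kb windows lay below a ratio of 1 and 2 to 10 above it. Of all 10-kb windows 36.8% lay above 1, and the lean downward here was likewise set by the choice. The 13 kept 1-Mb windows that adjoin these and are not among the 10 all lay below the median of all windows. The mTOR ratio was 0.864 to 0.9004. The interval of ERRα over mTOR lay below 1 in 7 of the 10 and above 1 in 0, against 701 and 144 of all 2338 windows. Picking windows by low ERRα over IgG itself favours low ERRα over mTOR.

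**Figure D5:**
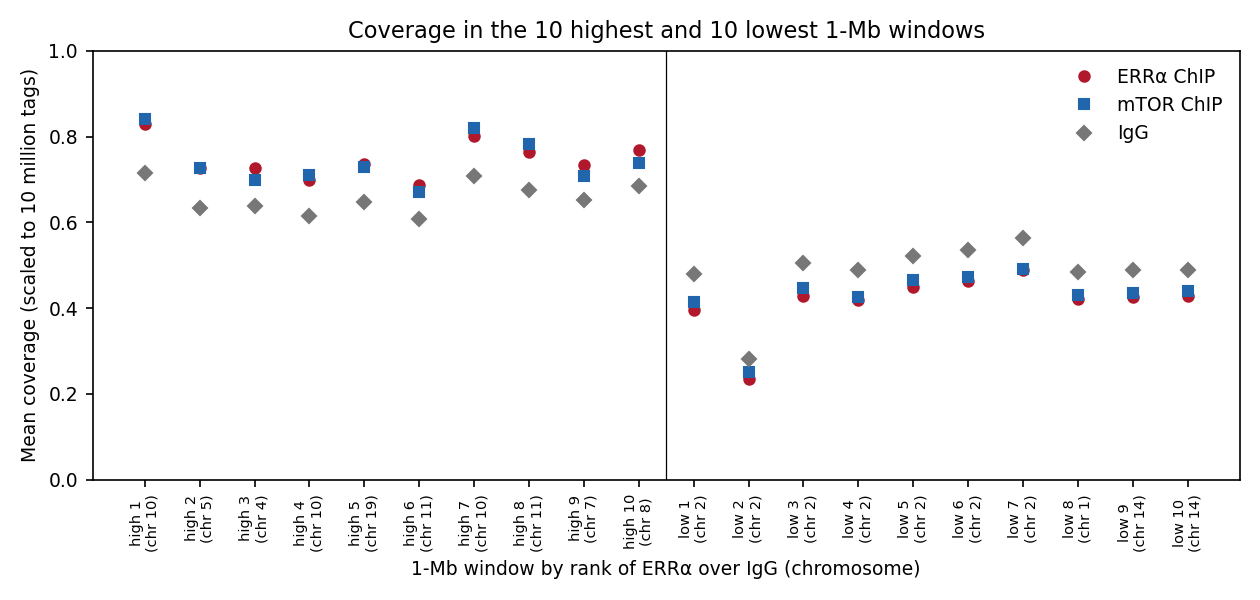
Mean coverage scaled to 10000000 tags (y axis) in the 10 highest and 10 lowest 1-Mb windows by ERRα over IgG (x axis, with chromosome), for the ERRα ChIP, the mTOR ChIP and IgG. ERRα lies between 0.687 and 0.829 in the highest windows and between 0.235 and 0.490 in the lowest, and IgG lies below ERRα in the former and above it in the latter.

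Chromosome 2 combined average IgG coverage with low ratios. Its median IgG was 0.592, and 70.9% of its windows lay below the line fitted between ratio and IgG over all chromosomes, with a median residual of -0.023. Chromosome 18 had -0.024 and 69% below, and chromosomes 1, 3 and 14 had 67.4%, 65.8% and 65.2% below. More windows lay below the line than above it on every chromosome except 9, 11 and 19, so this lean was not particular to chromosome 2. Stretches of chromosome 2 picked after the values were seen differed: from 90 to 120 Mb the median log2 ratio was -0.122 at an IgG of 0.581, and from 130 to 150 Mb it was -0.129 at 0.5996, with 20 of 20 windows below the line. From 150 Mb to the end it was -0.014 at 0.667. For mTOR these medians were -0.095, -0.105 and 0.012, and log2 ERRα over mTOR was -0.029, -0.028 and -0.043. Windows near the distal ends of the chromosomes were higher than those near the proximal ends, with a median of -0.0014 in the last 5 Mb (93 windows, 14 focal regions in the median window) against -0.075 in the first 5 Mb (92 windows, 5 focal regions).

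At 10 kb, few windows reached 1.5-fold in either direction. ERRα was higher in 287 of 224818 windows (0.128%) and lower in 449 (0.2%). Which side held more windows depended on the setting: 607 were higher and 281 lower when centred on the median window, 473 and 331 when scaled to the mean over kept bins, 99 and 52 with 0.1 added to both libraries, and 280 and 183 with IgG of 0.3 or more. With focal regions kept, 4972 (2.21%) were higher and 446 (0.198%) lower, and with 5 kb left out around them 146 were higher and 461 lower. The sides differed in kind. Of the 287 higher windows 186 (64.8%) held a focal region, against 8.08% of all windows, and 7 had IgG below 0.3. Of the 449 lower windows 3 held a focal region and 266 (59.2%) had IgG below 0.3, against 1.57% of all windows. By number, chromosome 11 held more of the 287 higher windows (35) than any other, and chromosome 2 more of the 449 lower ones (92). Of the 2338 windows of 1 Mb, 118 lay on chromosome 11 and 175 on chromosome 2. The median mTOR ratio, mTOR focal regions included, was 1.29 in the higher and 0.785 in the lower windows.

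The 5 highest 10-kb windows, ranked by the lower bound of their interval, were all beside focal regions. At chr7:20260001-20270000 coverage was 1.28 in ERRα, 0.613 in IgG and 0.922 in mTOR; ERRα over IgG was 2.09 (1.78 to 2.48), and it was the 1 window higher by 2-fold. The others were chr19:43590001-43600000 at 1.96 (1.59 to 2.43), chr8:121950001-121960000 at 1.84 (1.59 to 2.12), chr15:81670001-81680000 at 1.92 (1.55 to 2.40) and chr11:98920001-98930000 at 1.85 (1.53 to 2.25). Each held 1 or 2 focal regions, and 50% to 74% of its bins remained once these were left out. In the same windows mTOR over IgG was 1.26 to 1.57, with IgG read from the same bins as mTOR.

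The 5 lowest had hardly any ERRα coverage over IgG that was itself near the smallest value in the tracks, 0.1. At chr14:3950001-3960000 ERRα was 0, IgG 0.0905 (about 41.5 tags) and mTOR 0.0331. At chr2:177460001-177470000 the values were 0, 0.0859 and 0.0142, and at chr14:43840001-43850000 they were 0, 0.0818 and 0.0777. At chr7:7660001-7670000 ERRα was 0.00085, IgG 0.0834 and mTOR 0, and at chr7:22110001-22120000 they were 0.00504, 0.1 and 0.0345. The upper bounds of ERRα over IgG were 0.0851 to 0.154. Values were rounded to 0.1 per interval before deposit, and 73 of the 74 windows lower by 2-fold had IgG below 0.3; the part of rounding in these windows was not tested.

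Extended domains were rare. A domain was a run of at least 5 adjoining 10-kb windows that each departed by 0.32 or more on the log2 scale in 1 direction, a departure that 5968 windows (2.65%) showed upward and 12489 (5.56%) downward. There were 9 domains of higher ERRα, together 510 kb (0.0227% of windows), and 8 of lower ERRα, together 410 kb (0.0182%). This split depends on the scaling, with 23 higher and 2 lower domains when centred on the median window and 16 and 2 when scaled to the mean over kept bins.

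The 9 higher domains lay on 9 chromosomes and had pooled ratios of 1.296 to 1.392. Longest was chr7:106300001-106380000, 80 kb with coverage of 1.00 in ERRα, 0.737 in IgG and 0.937 in mTOR and a ratio of 1.36 (1.29 to 1.43). Next were chr4:135680001-135750000, with 0.795, 0.595 and 0.746 and a ratio of 1.34, and chr15:82210001-82270000, with 0.834, 0.599 and 0.745 and a ratio of 1.39 (1.301 to 1.489). The other 6, of 50 kb each, were chr9:77760001-77810000, chr17:29520001-29570000, chr11:101500001-101550000, chr5:122100001-122150000, chr12:25890001-25940000 and chr2:167450001-167500000. Each of the 9 held 2 to 7 focal regions that had been left out, and the 100 kb on their sides had ratios of 1.00 to 1.19. The mTOR ratio in them was 1.15 to 1.35. With 5 kb in place of 1 kb left out around focal regions no higher domain was found, 3 were found with focal regions called from 2-fold, and 5 were found with mTOR focal regions left out as well.

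The 8 lower domains lay on 4 chromosomes, 5 of them on chromosome 2, and none held a focal region. Chromosome 2 held 175 of the 2338 kept windows of 1 Mb. In 3 of them IgG was below 0.2. At chr2:177590001-177640000 coverage was 0.0876 in ERRα, 0.174 in IgG and 0.128 in mTOR, a ratio of 0.504 (0.425 to 0.596). At chr2:177130001-177190000 the values were 0.0840, 0.144 and 0.110, a ratio of 0.582 (0.494 to 0.683), and at chr7:9620001-9670000 they were 0.0993, 0.166 and 0.0965, a ratio of 0.6002 (0.510 to 0.709).

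The other 5 lower domains had IgG of 0.456 to 0.560 and ratios of 0.7415 to 0.776. They were chr2:150210001-150260000, chr5:59600001-59650000, chr2:108320001-108370000, chr18:86880001-86930000 and chr2:111330001-111380000. The first of these had mTOR coverage of 0.461, ERRα of 0.338 and IgG of 0.455, so that mTOR was at the level of IgG (ratio 1.015) where ERRα was at 0.7415 (0.676 to 0.812). In the remaining 4 the mTOR ratio was 0.790 to 0.854. Picking domains by low ERRα over IgG itself favours an mTOR ratio above that of ERRα. The 100 kb on the sides of the 8 domains had ratios of 0.762 to 0.901. With 0.1 added to both libraries no lower domain was left, and with windows of IgG of 0.3 or more only, 3 were found.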

How the data were processed

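ChIP-seq of mouse liver gave 1 track each for ERRα, mTOR and rabbit IgG, with groups read from the titles. The deposited tracks hold signal, that is, tag coverage along the genome that the authors scaled to 10000000 tags per library, per the file headers. Per the submitters' processing notes, the build was mm9, and MACS 1.4.1 and BWA 0.5.9 are named without a role. How duplicates were treated, how far tags were extended and which program wrote the tracks is not given in the sources used. Judged by the values, intervals averaged 298 bp and hold means rounded to 0.1, and coverage summed to 149 to 150 bp per tag. Rounding therefore weighs most where coverage is low.

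Coverage was averaged in 200-bp bins and then in windows. Approximate tag numbers follow from the coverage, a tag length of 150 bp and the library's total. No test was made, and a departure was counted from 1.1-fold at 1 Mb, 1.5-fold at 10 kb and 0.32 (log2) in domains of at least 50 kb. A window was used where at least 50% of its bins remained after focal regions were left out. Named are the 10 highest and 10 lowest 1-Mb windows, the 5 highest and 5 lowest 10-kb windows by the nearest interval bound, up to 10 domains in each direction and the 3 highest and 3 lowest chromosomes. The windows, focal regions and thresholds were chosen with earlier results of these data known. The window code was tested on simulated data. Genes, base composition and sequences were not analysed, because no mm9 genome was used here; gene counts per chromosome came from a table on GRCm38.p6. Alternatives were other scalings, an added constant, other treatments of focal regions, bins of high IgG and covered share, other window widths and folds, and other IgG axes. The tools were SciPy 1.17.1, pandas 2.3.3 and NumPy 2.4.6 under Python 3.11.15, with Matplotlib 3.10.9 for figures.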

Additional observations from a re-analysis of the deposited data

How the results depend on the processing

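No paired analysis was possible because each group has 1 library and the labels give no replicate numbers. A planned conversion of values to whole tags was not run, because the deposited values are means over intervals. Counts are given as 1-Mb windows, 10-kb windows and domains, higher and then lower, against 40 and 349, 287 and 449, and 9 and 8 in the report. Centred on the median window they were 184 and 9, 607 and 281, and 23 and 2. Scaled to the mean over kept bins, 131 and 43 at 1 Mb, 473 higher at 10 kb and 16 and 2 domains were counted. With 0.1 added they were 14 and 79, 99 and 52, and 2 and 0. Higher windows and domains numbered 305, 4972 and 167 with focal regions kept, 16, 146 and 0 with 5 kb left out around them, and 8, 125 and 3 with focal regions called from 2-fold. Windows covered by 50% or more gave 690 lower 10-kb windows. Windows of 500 kb gave 119 and 775, and windows of 20 kb 19 and 39. A fold of 1.2 gave 0 and 1 at 1 Mb; at 10 kb a log2 threshold of 0.32 gave 5968 and 12489, and 2-fold 1 and 74. Domains numbered 0 and 0 at 1.5-fold, 125 and 131 from 3 windows, and 0 and 0 from 10 windows.

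Of the alternatives chosen after seeing the data, the median bin gave 16 and 565, 823 and 2844, and 26 lower domains. Windows with IgG of 0.3 or more gave 183 lower 10-kb windows and 3 lower domains, and leaving out mTOR focal regions gave 5 higher domains. The 10-kb correlation with IgG, 0.175, was 0.115 with IgG of all bins, 0.379 with mTOR coverage and 0.368 with the mean of both libraries as the axis; at 1 Mb it stayed between 0.665 and 0.841. The 6 named chromosome values moved by less than the spread of their windows. Except where the alternative's own construction sets a count, the cause was not tested. Counting error limits 10-kb values, and with 1 library per group no value has a replicate check.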

Other observations

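The sex chromosomes were outside the windows described above. On chromosome X, 143 windows of 1 Mb passed the same filters at a median IgG coverage of 0.256, with a median log2 ratio of ERRα to IgG of -0.108 (quartiles -0.154 and -0.058) and a maximum of 0.095. None was higher by 1.1-fold or more, 50 were lower, and 8 lay above a ratio of 1. The median for mTOR over IgG, with only ERRα focal regions left out, was -0.102. The whole of chromosome X, including windows not kept, held 141 focal regions.

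The 1-Mb windows in which the ChIP libraries differed most from each other were picked after their values were seen. ERRα over mTOR was highest at chr1:121000001-122000000, with coverage of 0.714 in ERRα, 0.674 in mTOR and 0.662 in IgG, a ratio of 1.06 (interval 1.04 to 1.08). It was lowest at chr18:37000001-38000000, with 0.492, 0.547 and 0.546, a ratio of 0.899 (0.883 to 0.916). In that window mTOR lay at the level of IgG and ERRα below both. At chr12:20000001-21000000 the ratio was 0.8999 (0.877 to 0.924) at an IgG coverage of 0.259.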
